A study of Xenopus laevis with 5 samples.

Results

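Transcripts of the keratin genes krt18.1 and krt19 were followed in Xenopus laevis skin explants as 4 gene symbols, krt18.1.L, krt18.1.S, krt19.L and krt19.S, each measured by 1 probe set of an Affymetrix array. The 4 probe sets were taken by their platform symbol from 15491 non-control probe sets, and 26 probe sets of other symbols starting with krt served as background. The genes were chosen by their signal on these same arrays, which earlier results had shown to be higher with ICD than with HMM. That difference is therefore described below without a test, and no support is drawn from it.

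Embryos had received synthetic mRNA for ICD (3 arrays) or for HMM (2 arrays) at the 2-cell stage. The presumptive ectoderm was cut off at stage 9 to 10, cultured on fibronectin in Danilchik's medium with 0.1% BSA and harvested at the equivalent of stage 22, in both groups. The labels also give 0.1x MMR, a salt solution, for both groups. They spell out neither the name ICD nor the name HMM. As background, ICD is the usual short form for the Notch intracellular domain, which switches Notch targets on, while HMM names a shortened form of human Mastermind that acts against them. Explants without injected RNA were not analysed here, so it cannot be told which of the 2 groups moved, and the labels do not say whether replicates came from separate batches of embryos, so p-values cover the spread between these arrays.

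Keratins form the intermediate filaments of epithelial cells. Each filament is built from a type I (acidic) and a type II (basic) chain. In simple epithelia of mammals the type I keratin 18 pairs with the type II keratin 8, and the type I keratin 19 lies in simple and ductal epithelia and in some basal cells of layered ones. Xenopus laevis is allotetraploid, so that most of these genes have an L and an S homeolog, which are separate genes from the subgenomes. In the embryo and tadpole the skin is known for its own keratins, among them krt12.4 and krt70 (type I). The arrays measured RNA of whole explants, in which more RNA per cell and more cells of a type cannot be told apart.

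Signals are the authors' MAS5 intensities on a linear scale, and differences were fitted on log2(signal + 5.9) as ICD minus HMM. The median signal per array lay between 62.1 and 72.7. ICD replicate 3 stood apart in its poly-A spike controls, whose median was 2.95 there and 318 to 356 on the other arrays, so member values without it are given below. The ratio of the 3' to the 5' control probe set of gapdh, which rises with RNA degradation, followed the replicate number: it was 3.8 on ICD replicate 2 and 3.99 on HMM replicate 2, and 2.75 to 2.8 on the other arrays. Those 2 arrays are also the ones without which nearly all calls given below were lost, and the part of RNA quality in the results was not tested. The explants carried epithelial marker RNA in both groups, with epcam.L, which encodes an epithelial adhesion molecule, reading 4581 ± 313 for ICD (SD, n = 3), against 2395 ± 304 for HMM (SD, n = 2). It was 1 of 20 kept epithelial marker genes called higher (difference 0.94, limma adjusted p = 0.0277), and it was called with ICD replicate 1 left out and with no other array left out. The vesicle trafficking gene rab25.L was called lower, at 356 ± 89.6 for ICD (SD, n = 3), against 1361 ± 143 for HMM (SD, n = 2), though not with ICD replicate 2 or HMM replicate 2 omitted. The other 18 did not pass. Over all kept probe sets 1.55% were called higher and 3.5% lower. Of the 20 genes, 6 were called without ICD replicate 1 and 9 with the replicate number as a block. HMM has no replicate 3, so here and below that block fits ICD replicate 3 exactly and rests on replicates 1 and 2. Whether krt18.1 and krt19 RNA came from simple epithelium cannot be read from whole explants.

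For krt18.1.L the signal was 3879, 5497 and 6937 with ICD, against 2349.6 and 1636 with HMM. ICD replicate 1 was the lowest of its group and still 1.65 times the higher HMM array. The signal of krt18.1.S was 760.3, 1225 and 965 for ICD, against 409.5 and 275 for HMM. Levels of different probe sets cannot be compared with each other, because each binds its target with its own strength. For krt18.1.S, ICD replicate 2 was the highest array, and the lowest ICD array was 1.86 times the higher HMM array. Group means were 5438 ± 1530 for ICD (SD, n = 3), against 1993 ± 504 for HMM (SD, n = 2) for krt18.1.L, and 983 ± 233 in ICD and 342 ± 95 in HMM for krt18.1.S.

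The krt19 probe sets were tighter within groups and further apart between them. For krt19.L the ICD arrays read 5704, 5628 and 7081, and the HMM arrays 2006 and 1689. For krt19.S the ICD arrays read 3340.3, 2808 and 2716, and the HMM arrays 700.3 and 563. The lowest ICD array was 2.81 times the higher HMM array for krt19.L and 3.88 times for krt19.S. The coefficient of variation was 13.3% in ICD and 12.2% in HMM for krt19.L, 11.4% in ICD and 15.4% in HMM for krt19.S, and between 23.7% and 28.1% in either group for both krt18.1 probe sets. In all 4 probe sets HMM replicate 1 read higher than HMM replicate 2.

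**Figure D1:**
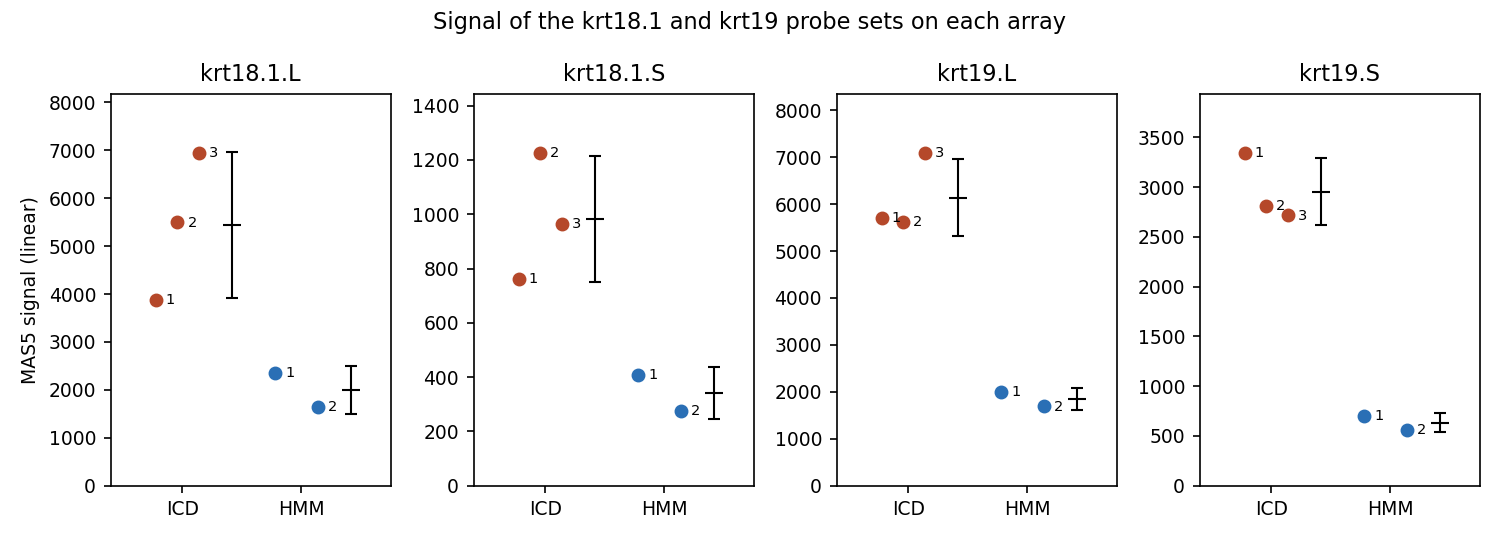
MAS5 signal (linear, from 0) of the 4 probe sets on each array, ICD left and HMM right; numbers are replicate numbers, and black bars beside the points give the group mean and SD. All ICD arrays lie above both HMM arrays in each panel, with lowest ICD over highest HMM ratios of 1.65 for krt18.1.L to 3.88 for krt19.S.

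On the log2 scale the differences were 1.43 ± 0.28 (SE of the limma fit) for krt18.1.L, 1.51 ± 0.30 for krt18.1.S, 1.73 ± 0.18 for krt19.L and 2.22 ± 0.21 for krt19.S. These are 2.69-fold, 2.84-fold, 3.31-fold and 4.65-fold higher levels in ICD. In 4 of 4 members all ICD arrays lay above both HMM arrays, which also held for 20.4% of the 9981 kept probe sets, while 17% lay the other way. Nothing is read from the 4 of 4, since the choice fixed it. At a limma adjusted p under 0.05, 5.05% of the kept probe sets were called, 1.55% higher and 3.5% lower in ICD. Probe sets were kept where they lay above 42.6 on at least 2 arrays, and all 4 members passed this filter in both groups. Of the kept probe sets, 35 had a larger difference than krt19.S, 127 than krt19.L, 197 than krt18.1.S and 227 than krt18.1.L. The members are also bright: 85 kept probe sets had a higher mean signal than krt18.1.L and 67 than krt19.L. Among the 1278 probe sets at least as bright as krt18.1.S, 5.48% were called in either direction and 2.82% were called higher, the groups were separated upward in 21.7%, and 2 had a larger difference than krt19.S. The count of bright probe sets called higher was 36, and it was 117 with the replicate number as a block, 22 without HMM replicate 1, 12 with ICD replicate 3 omitted, 44 with ICD replicate 1 omitted, and 0 without ICD replicate 2 or HMM replicate 2.

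Both homeologs of each gene read higher in ICD. The difference of krt18.1.S exceeded that of krt18.1.L by 0.08, and that of krt19.S exceeded that of krt19.L by 0.49, where the median absolute gap over 690 homeolog pairs with both genes kept was 0.28. A smaller gap than that of krt18.1 was seen in 15.2% of the pairs, and a smaller gap than that of krt19 in 73.9%. The member probe sets carry the plain suffix that marks a design against 1 transcript, but whether they also bind the other homeolog was not tested. In 8 of the 690 pairs (1.16%) both homeologs were called higher in ICD. Of these, krt18.1 and krt19 are 2 by their choice, and nothing is read from their calls. They were also not set aside in the counts with a block or an array left out given below. The other 6 were actn1 (alpha-actinin, an actin cross-linker), cnn2 (calponin, an actin-binding protein), col18a1 (a basement membrane collagen), mdk (midkine, a secreted growth factor), sparc (a matrix glycoprotein) and tgif2 (a homeodomain repressor), with differences from 1.32 for cnn2.S to 2.51 for tgif2.S. In 28 pairs at least 1 homeolog was called higher. The count of 8 pairs was 29 with the replicate number as a block, 4 without HMM replicate 1, 2 with ICD replicate 3 omitted, 13 with ICD replicate 1 omitted, and 0 without ICD replicate 2 or HMM replicate 2.

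The RNA of krt8.1.S, the type II partner of krt18.1, did not pass the test. It has 2 kept probe sets. The first read 5512, 5478 and 8350.4 for ICD, against 6814 and 5136 for HMM. The second read 4733, 6219.8 and 8529 for ICD, against 7183 and 5039 for HMM. The groups overlapped in both, with differences of 0.09 ± 0.24 (SE; limma adjusted p = 0.868) and 0.07 ± 0.27 (SE; limma adjusted p = 0.921). With these errors an equal level was not shown. The homeolog krt8.1.L has no probe set of its own symbol among those used here.

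None of the other keratins passed the test. Of the 26 background probe sets (20 symbols), 13 passed the filter, and limma called 0 of them, where 5.05% of all kept probe sets were called in either direction. With only 13 probe sets a count of 0 lies close to a share of 5.05%, so nothing is read from it. At an unadjusted limma p under 0.05, 1959 of all kept probe sets passed, but the keratin probe sets were not counted at that threshold. The differences of the 13 ran from -0.49 to 0.11 with a median of -0.017, beside a median of 0.078 over all kept probe sets. One of them, krtcap3.L, encodes a keratinocyte-associated membrane protein and is no keratin, which leaves 12 probe sets of 7 keratin genes.

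Among type I skin keratins, krt12.4.S read 4433, 4869 and 6520.2 for ICD, against 7455 and 7170.5 for HMM. Here both HMM arrays lay above all ICD arrays, with a difference of -0.49 ± 0.19 (SE; limma adjusted p = 0.22, not passing, but called with the replicate number as a block). The groups were separated the same way for krt12.5.S, at 5618 ± 661 for ICD (SD, n = 3), against 6878 ± 439 for HMM (SD, n = 2); the difference was -0.30 (limma adjusted p = 0.364). They overlapped for krt12.4.L, with a difference of -0.14, and for krt70.L, with a difference of 0.11. The 4 probe sets of krt70.S differed by -0.27 to 0.01, and the groups were also separated, with ICD below HMM, in that at -0.27. Such a separation held for 17% of all kept probe sets, and nothing is read from it here. The brightest krt70.S probe set had the highest signal of all probe sets on each of the 5 arrays, 11196 to 15646 in ICD and 14505 and 11611 in HMM. The type II gene krt7.L differed by -0.08 and -0.34 in its 2 probe sets, the second of them dim. Its brighter probe set read 8167 ± 1070 for ICD (SD, n = 3), against 8631 ± 1120 for HMM (SD, n = 2). Low values were seen for the remaining 13 probe sets, of 12 symbols, which include krt51.L, krt55.L, krt12.6.S, krt15.1.S and krt17.S. Their highest reading was 55.7, on ICD replicate 1 for krt12.2.L, and no difference was fitted for them.

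**Figure D2:**
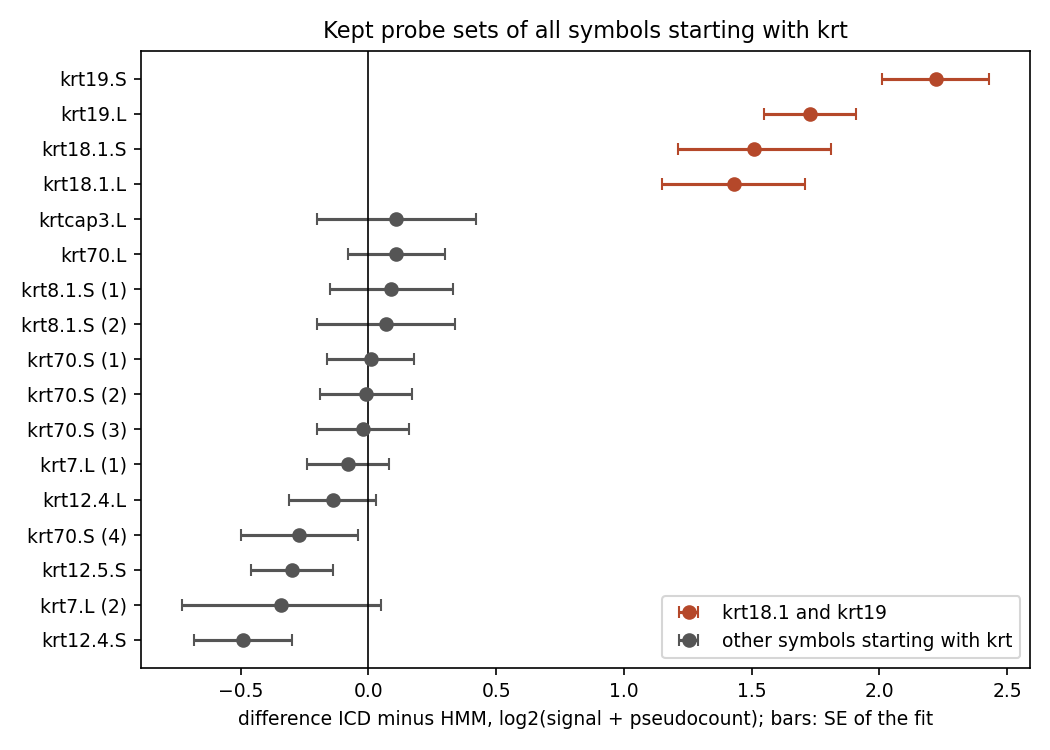
Difference ICD minus HMM on log2(signal + 5.9) for the 17 kept probe sets of symbols starting with krt; points are estimates, bars the SE of the limma fit, and numbers in brackets tell probe sets of 1 gene apart. The 4 members lie between 1.43 and 2.22 and the other 13 between -0.49 and 0.11.

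The L homeologs shared their highest ICD array and their higher HMM array with most other keratin probe sets. The order of ICD replicates 1 and 2 was not compared, and krt18.1.L differed in it from krt7.L and krt12.4.L, among others. In 9 of the 12 other keratin probe sets ICD replicate 3 was the highest ICD array and HMM replicate 1 the higher HMM array. This order was found in 18.4% of the bright probe sets and in 13.1% of all kept ones. The 12 probe sets are of 7 genes, so they are not 12 separate cases. Of them, 10 were at least as bright as krt18.1.S, and 9 of these had the order. The part of brightness, and of ICD replicate 3 with its aberrant spike controls, in this order was not tested. Of the members, krt18.1.L and krt19.L had this order, and the S homeologs did not. Each member was then set against the mean log2 value of the 12 other keratin probe sets of the same array, a step chosen after the data had been seen. The range of krt19.L over the ICD arrays was 0.33 on its own and 0.08 in this relative form, and over the HMM arrays 0.25 and 0.03. The range of krt18.1.L was 0.84 on its own and 0.61 in relative form over the ICD arrays, and 0.52 and 0.31 over the HMM arrays. The relative differences were 1.54 for krt18.1.L, 1.62 for krt18.1.S, 1.84 for krt19.L and 2.33 for krt19.S. Against the second krt8.1.S probe set, the range of krt18.1.L over the ICD arrays was 0.12, where it was 0.84 on its own, and over the HMM arrays it was 0.01, where it was 0.52 on its own, with a relative difference of 1.36. The suffix of that krt8.1.S probe set marks probes that may also bind other transcripts. Against the same probe set krt19.L widened, to a range of 0.54 over the ICD arrays and 0.26 over the HMM arrays. Against the first krt8.1.S probe set, krt18.1.L ranged over 0.51 in ICD and 0.11 in HMM, and krt19.L over 0.29 in ICD and 0.16 in HMM. The S homeologs did not tighten in this way in ICD. There krt18.1.S ranged over 0.68 on its own and 0.80 against the second krt8.1.S probe set. The ICD range of krt19.S was 0.30 on its own and 0.53 against the 12 keratin probe sets. Over the HMM arrays the S homeologs did tighten. Against the same references krt18.1.S went from 0.56 to 0.05 there, and krt19.S from 0.31 to 0.10.

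**Figure D3:**
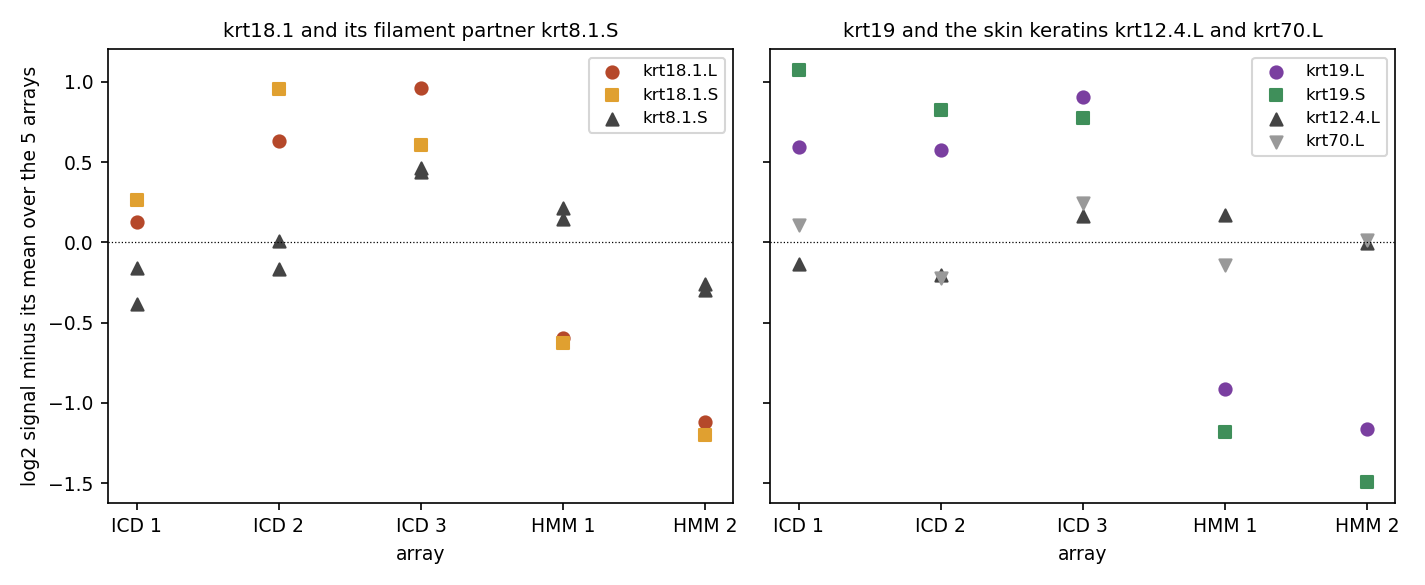
Log2 signal on each array minus the mean of that probe set over the 5 arrays, ICD arrays left and HMM arrays right; left panel krt18.1.L, krt18.1.S and both krt8.1.S probe sets, right panel krt19.L, krt19.S, krt12.4.L and krt70.L. The members separate the groups, with differences of 1.43 to 2.22, while krt8.1.S, krt12.4.L and krt70.L differ by -0.14 to 0.11.

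The size of the member differences depended moderately on the arrays. Without ICD replicate 3, the array with aberrant spike controls, they were 1.23 for krt18.1.L, 1.51 for krt18.1.S, 1.62 for krt19.L and 2.28 for krt19.S. The lowest values with an array left out came without HMM replicate 2 for all 4, at 1.17, 1.22, 1.60 and 2.06 in the same order. The highest came without HMM replicate 1, at 1.69, 1.79, 1.85 and 2.37. With groups that are fully separated no such omission can turn a direction, so the constant sign is no check. Under the other 8 alternatives the values stayed within 1.23 to 1.54 for krt18.1.L and 2.19 to 2.33 for krt19.S.

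**Figure D4:**
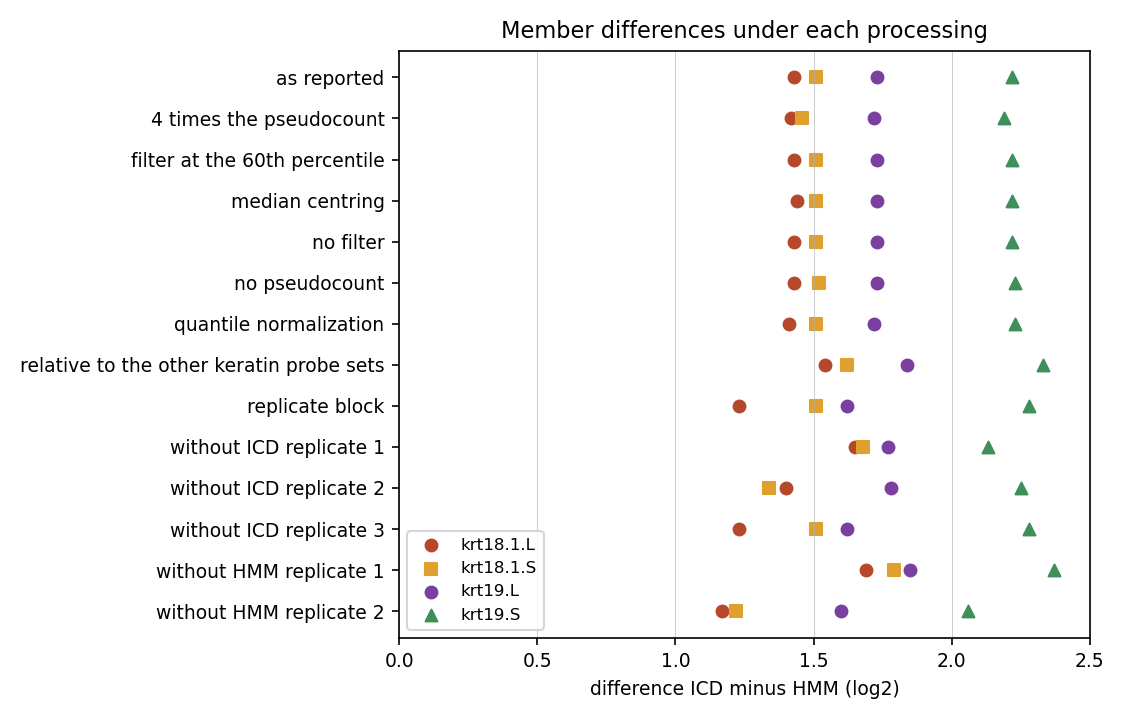
Difference ICD minus HMM (log2, axis from 0) of each member as reported and under each alternative; a point is 1 fit. The values of krt18.1.L run from 1.17 to 1.69 and those of krt19.S from 2.06 to 2.37.

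Genes that act with keratin filaments or anchor basal cells were read from lists chosen with earlier results of these arrays known. Each list is given by its counts and its median, beside the 0.078 of all kept probe sets. The counts stand beside 5.05% of all kept probe sets called, 1.55% higher and 3.5% lower in ICD. Of 7 kept genes of other intermediate filaments, 1 was higher in ICD and 6 did not pass, with a median of 0.34. It was prph.S, which encodes the neuronal filament protein peripherin, at 68.8 ± 17.9 for ICD (SD, n = 3), against 12.35 ± 9.69 for HMM (SD, n = 2); the difference was 2.11 (limma adjusted p = 0.0407). Both HMM arrays, at 5.5 and 19.2, lay below the filter of 42.6, so prph.S was kept only through the ICD arrays, and the size of its difference depends on the pseudocount. The call was lost when any array but ICD replicate 1 was omitted, and also with quantile normalization, with no pseudocount and under the stricter filter. The homeolog prph.L differed by -0.22. The vimentin gene vim.L, whose filaments mark mesenchymal cells, had a difference of 1.05 (limma adjusted p = 0.282).

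Desmosomes are the junctions that anchor keratin filaments at the cell border. Their list, which also holds plakin genes and krtcap3.L, had no called gene among 13 kept, with a median of 0.04. Of all kept probe sets 5.05% were called in either direction. Its largest difference was 1.46, for the plakin gene dst.L (limma adjusted p = 0.116). All dst.L ICD arrays lay above both HMM arrays, as in 20.4% of all kept probe sets. The HMM arrays read 32.2 and 27.9, below the filter of 42.6, so dst.L was kept only through the ICD arrays. With the replicate number as a block 3 genes of this list were called, and without ICD replicate 1 it was 1. The plakoglobin genes jup.L and jup.S differed by -0.07 and 0.04, the periplakin gene ppl.L by -0.32 and the envoplakin gene evpl.L by -0.16. The plakophilin gene pkp2.L, whose product links desmosomal cadherins to filaments, read 1434 ± 212 for ICD (SD, n = 3), against 717 ± 17.7 for HMM (SD, n = 2); the difference was 0.98 (limma adjusted p = 0.0514), and it was called with 4 times the pseudocount, robust eBayes, median centring or a stricter filter, and with ICD replicate 1 left out. The difference of pkp4.L was 1.08 (limma adjusted p = 0.0835). Hemidesmosome and basement membrane genes, which anchor basal cells, had 4 of 7 kept genes called higher while 3 did not pass. Their median was 1.35, and 1.55% of all kept probe sets were called higher. The called genes were col18a1.L (2.32) and col18a1.S (2.15), itga3.L (2.00), an integrin of basal cells that binds laminin, and itgb1.S (1.35), its beta chain. The collagen gene col18a1 is thus counted by both homeologs. The integrin gene itga3.L read 292 ± 50.7 for ICD (SD, n = 3), against 68.1 ± 0.919 for HMM (SD, n = 2; limma adjusted p = 0.0163). The 4 calls became 2 without ICD replicate 3 and 0 without ICD replicate 2 or HMM replicate 2. The hemidesmosome integrin gene itga6.L differed by 0.41 and did not pass. The homeolog itgb1.L did not pass either, with a difference of 1.01 (limma adjusted p = 0.207). No change in the anchoring of keratin filaments is read from this list.

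A further list held 26 kept genes for chaperones, kinases and adaptors that act on keratin 8 and 18 in mammalian cells. Of these, 1 was lower and 25 did not pass, with a median of 0.01. Over all kept probe sets 3.5% were called lower, and nothing is read from the 1 call. The lower one was tchp.L, which encodes trichoplein, a keratin-binding protein that is also found at centrioles. It read 103 ± 20.7 for ICD (SD, n = 3), against 467 ± 215 for HMM (SD, n = 2); the difference was -2.06 (limma adjusted p = 0.0254). The call was lost when ICD replicate 2, ICD replicate 3 or HMM replicate 2 was omitted. The kinase gene aurkb.L, of a mitotic kinase, had a difference of 0.91 (limma adjusted p = 0.126).

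**Figure D5:**
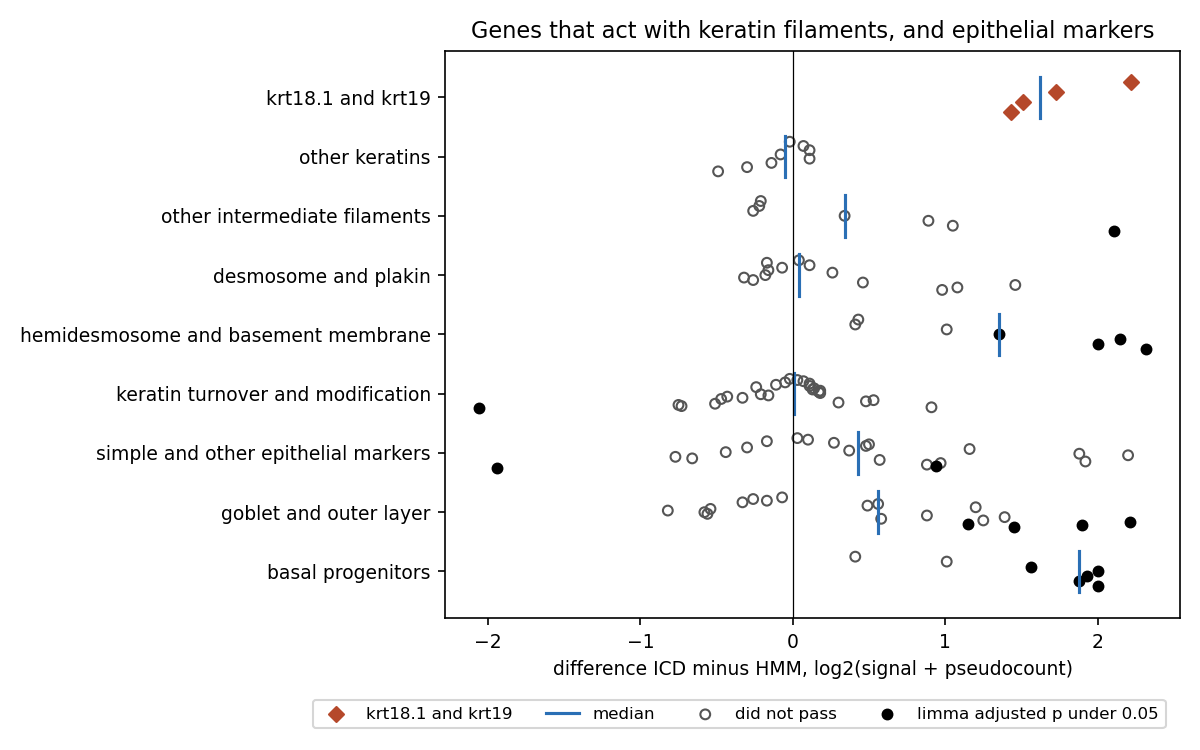
Difference ICD minus HMM on log2(signal + 5.9) for krt18.1 and krt19 (diamonds), the other keratin symbols and 7 gene lists; each point is 1 gene, filled where limma's adjusted p was under 0.05, and blue lines are medians. Desmosome and plakin genes centre on 0.04, hemidesmosome and basement membrane genes on 1.35 and the members on 1.62.

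Of 40 kept genes of transcription factors of vertebrate epithelia, 5 were higher, 1 was lower and 34 did not pass, with a median of 0.18. Over all kept probe sets 1.55% were called higher and 3.5% lower. Those called higher with the largest differences were foxi4.2.L (2.16), klf17.L (2.00) and zfp36l1.S (1.88), the last an RNA-binding protein gene that was put on this list in error. The gene hey1.S, of a Notch target factor, had a larger difference of 2.37 that did not pass (adjusted p = 0.14 by limma). Among genes of other Notch target factors, hes4.S (1.09), hes1.L (-1.09) and hes1.S (-1.04) did not pass. All hes1.L ICD arrays lay below both HMM arrays, but at 18.2, 21.0 and 33.9 they also lay below the filter. It was kept only through the HMM arrays. The called differences were 1.56 for the basal factor gene tp63.L, 1.12 for the Notch target gene hes4.L and -7.22 for the ionocyte factor gene foxi1.L. The foxi1.L signal was 7.9 ± 8.67 for ICD (SD, n = 3), against 1843 ± 414 for HMM (SD, n = 2), so near the pseudocount in ICD that this size depends on it. Factors known to act on the keratin 18 gene in mammals did not pass: the differences were -0.54 for jun.L, 0.11 for jund.S, 0.25 for ets2.L, 0.15 for ets2.S and 0.41 for sp1.L. Without ICD replicate 2 or HMM replicate 2, 1 factor of this list was called, with ICD replicate 3 left out 2 were called, with HMM replicate 1 left out 3, with ICD replicate 1 left out 10, and with the replicate number as a block 12.

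Genes with the most similar profile were found by the mean absolute difference of centred log2 values over the 5 arrays, among 6379 kept probe sets with an informative symbol. The closest to krt18.1.L were ndst1.S, which encodes an enzyme of heparan sulfate synthesis, at a distance of 0.0544, and aplp2.L, a relative of the amyloid precursor gene, at 0.0717. Then came sema6d.L (a semaphorin), hapln3.S (a link protein of the hyaluronan matrix) and acp5.S (an acid phosphatase). On the HMM arrays sema6d.L (28.9 and 18.6) and hapln3.S (22.6 and 15.2) lay below the filter of 42.6. Both were kept only through the ICD arrays, and with 4 times the pseudocount neither was among the 5 nearest. The 5 nearest to krt18.1.S were sema6d.L, fkbp9.S (a prolyl isomerase of the secretory pathway), fgfr1.L (a fibroblast growth factor receptor), aplp2.L and msi1.L (an RNA-binding protein), at 0.0960 to 0.144. The 5 nearest to krt19.L were actn1.L at 0.0420, dynll1.S (a dynein light chain), ckm.L (a creatine kinase), vwa5a.2.L and mycl.S (a MYC family factor), up to 0.110. Around krt19.S lay mdk.L at 0.122, smtn.L (smoothelin, a cytoskeletal protein), olfm4.L (a secreted olfactomedin), cldn1.S (a tight junction protein) and ptgs2.S (cyclooxygenase, which makes prostaglandins), up to 0.181. The homeolog was not among the nearest: krt18.1.S stood at position 23 for krt18.1.L, at 0.181, and krt19.S at position 88 for krt19.L, at 0.289. Since probe sets were ranked by likeness to chosen genes, their own differences add nothing to the choice.

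The profile of actn1.L shows how close the nearest was: 1297, 1238 and 1666 for ICD, against 422 and 378 for HMM, with a difference of 1.78, beside 1.73 for krt19.L. With 4 times the pseudocount, 2 of the 5 nearest to krt18.1.L, 4 of those to krt18.1.S, 3 of those to krt19.L and 4 of those to krt19.S were the same genes.

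The member genes lie in keratin clusters, read from the gene order of the RefSeq annotation of Xenopus_laevis_v10.1. The krt18.1 genes sit at the edge of the type II cluster, each with krt8.1 as the next gene on the side of the keratins and eif4b on the other. The krt19 genes lie inside the type I cluster. Of the 10 protein-coding genes on each side of a member, 10 were keratins around krt18.1.L, krt18.1.S and krt19.L, and 13 around krt19.S. Neighbours with a kept probe set numbered 1 around krt18.1.L, 8 around krt18.1.S, 5 around krt19.L and 6 around krt19.S, and 1 of these 20 was called, a share near the 5.05% of all kept probe sets. It was fkbp10.L, which encodes a prolyl isomerase of collagen folding and lies 10 genes from krt19.L, at 622 ± 274 for ICD (SD, n = 3), against 113 ± 24.7 for HMM (SD, n = 2; limma adjusted p = 0.0327). That call held with ICD replicate 1 left out only. The translation factor gene eif4b.S, next to krt18.1.S, had a difference of 0.54 (limma adjusted p = 0.225).

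Markers of several skin cell types also differed between the groups. Their counts stand beside 1.55% of all kept probe sets called higher and 3.5% called lower. All 10 kept ionocyte genes were lower in ICD, and their summed signal lay between 187 and 334 on the ICD arrays and between 14040 and 25830 on the HMM arrays. Most of them were kept only through the HMM arrays, with ICD signals such as 10.3 ± 12.3 for ubp1.L (SD, n = 3), below the filter of 42.6. Without a filter all 10 were called as well. Of 17 kept genes of multiciliated cells 16 were lower, with summed signals of 843 to 2793 in ICD and 10320 to 19160 in HMM. Among them foxn4.S and tekt2.L were also kept only through the HMM arrays. Of 7 kept basal genes 5 were higher and 2 did not pass. The 5 were klf17.L, tp63.L, zfp36l1.S and itga3.L, which also stand on other lists here, and sox11.S. The HMM arrays of tp63.L read 61.2 and 35.5, so it passed the filter only with the ICD arrays. Summed signals of the basal list were 3093 to 3676 in ICD and 776 to 1225 in HMM. Without ICD replicate 2 or HMM replicate 2 no basal or multiciliated gene was called, and 9 and 6 ionocyte genes were; without ICD replicate 3 it was 2 basal and 9 multiciliated genes, and without HMM replicate 1 it was 3 basal and 9 multiciliated genes. Of 19 kept goblet and outer-layer genes 4 were higher, agr2.S, ag1.S, cldn1.S and capn8.3.L, and 15 did not pass. The ICD arrays of these 4, and of others such as ag1.L (0.58) and cldn6.1.S (1.25), lay above both HMM arrays. Of all kept probe sets 20.4% were separated upward and 17% downward. The list's median was 0.56, with 11 differences above 0 and 8 below, among them upk1b.L (-0.58), grhl1.L (-0.56) and tjp3.L (-0.54), whose ICD arrays all lay below both HMM arrays, grhl3.L (-0.82) and itln1.L (-0.33). Its summed signals were 45750 to 53870 in ICD and 35900 to 37240 in HMM, and no gene of it was called without ICD replicate 2 or HMM replicate 2. Of 4 kept genes of small secretory cells, pnhd.L was called higher (2.60), though its HMM arrays, at 38.9 and 27.5, lay below the filter. The other 3 did not pass and had differences below 0, -0.53 for slc18a1.S, -0.40 for htr3a.L and -0.29 for foxa1.S, and the list's median was -0.35, with summed signals of 1443 to 2702 in ICD and 2252 to 2481 in HMM. The gene pnhd.L was not called without ICD replicate 2 or HMM replicate 2. The part of these shifts in the levels of krt18.1 and krt19 was not tested.

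Most listed genes of notochord, endoderm and muscle were not kept by the filter, while most neural, crest and cement gland genes were. Calls in these lists stand beside 1.55% of all kept probe sets called higher and 3.5% called lower. Notochord is also known for keratin 8 and 18 filaments. Of 12 listed notochord genes 2 were kept, cav1.L (-0.24) and not.S (-0.02), and neither was called. Among those not kept, shh.L read at most 6.2 in ICD and 2.6 in HMM. The defining notochord factor gene tbxt.S read at most 24.3 in ICD and 27.6 in HMM. The gene calb1.L, also not kept, read at most 40.6 in ICD and 237 in HMM. The summed signal of the 2 kept genes was 108 to 202 in ICD and 164 to 214 in HMM. Endoderm genes, 3 kept of 19, were not called, with summed signals of 835 to 1606 in ICD and 1090 to 1588 in HMM. The 3 kept were a2m.S, gata6.L and cndp1.L, and the sox17 probe sets read at most 16.6 in ICD and 8.7 in HMM. Of 22 muscle and mesoderm genes 2 were kept and 1, ckm.L, was called higher, a call not made with ICD replicate 2, ICD replicate 3 or HMM replicate 2 omitted, while myod1.L stayed at or below 21.7 in ICD and 34.9 in HMM. The other kept gene, the troponin gene tnni2.S, did not pass. It read 202.7 ± 132 for ICD (SD, n = 3), against 275.9 ± 161 for HMM (SD, n = 2). Summed signals of the 2 kept genes were 652 to 846 in ICD and 318 to 607 in HMM. In the neural, crest and cement gland list all 19 kept genes of 31 had differences above 0, with a median of 0.93, beside 0.078 over all kept probe sets. In it agr2.S (1.45), ag1.S (1.15) and otx1.L (1.84) were called, and both agr2.S and ag1.S also stand on the goblet list. The HMM arrays of snai2.S (18.9 and 18.7) and zic2.L (21.0 and 23.6) lay below the filter of 42.6. Both were kept only through the ICD arrays, so nothing is read from the sign of their differences. Others, such as pax6.L, had an HMM array below the filter. Some genes, such as sox3 and otx2, are counted by both homeologs. The list's summed signal was 24130 to 32310 in ICD and 12150 to 13160 in HMM, 2 to 3 members were called without ICD replicate 3 or HMM replicate 1, 10 without ICD replicate 1, 8 with the replicate number as a block, and 0 without ICD replicate 2 or HMM replicate 2. The part of this list in the member levels was not tested either.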

How the data were processed

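RNA of 5 explant samples (3 ICD, 2 HMM) was hybridised to 1-colour Affymetrix arrays. The files deposited by the authors hold intensity on a linear scale for each probe set. Per the submitters' processing notes they were made with MAS5, with no version or settings recorded there. The 2% trimmed mean was near 200.0 on every array, so no scaling was added. Scaling to a common mean removes differences in total RNA, and MAS5 signals of dim probe sets carry large relative errors. The number of arrays limits the precision.

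Of 15611 probe sets, 120 controls were left out. The platform annotation gave 1 symbol to 9304 probe sets, several to 195 and none to 5992, and 9227 were found in RefSeq's gene table, which updated 2 symbols and gave the gene order. Its coordinates were not used. Values were tested as log2(value + 5.9), the 10th percentile, after a filter at the 40th percentile (42.6 on at least 2 arrays), with limma 3.58.1 in R 4.3.3 (lmFit, eBayes with trend, no covariates, two-sided, Benjamini-Hochberg over 9981 probe sets, threshold 0.05). The fit was tested on simulated data. The highest-mean probe set stood for a gene in a list.

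The members, the lists and the rule for named genes were chosen with earlier results of these data known. Named were all krt probe sets, the 5 nearest profiles of each member, and in each list up to 4 called genes with the smallest p, or the 2 smallest where fewer than 2 were called. Genes of a list beyond this rule were chosen after their values were seen. Figures were drawn with matplotlib 3.10.9. The alternatives are named in the closing section.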

Additional observations from a re-analysis of the deposited data

How the results depend on the processing

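Values were recomputed with no or 4 times the pseudocount, with no filter or one at 110.7 (60th percentile), after median centring or quantile normalization, with robust eBayes or without its trend, the replicate number as a block, the mean of all probe sets of a gene for the lists, each array left out, and, added after seeing the data, members relative to the other keratins. All 4 member differences stayed within 1 within-group SD of the reported value under each alternative run for them. Leaving out an array, they ran from 1.17 to 1.69 (krt18.1.L), 1.22 to 1.79 (krt18.1.S), 1.60 to 1.85 (krt19.L) and 2.06 to 2.37 (krt19.S). Counts of calls were less steady. Of all kept probe sets 504 were called, 155 higher and 349 lower; with an array left out this ran from 11 (without HMM replicate 2) to 843 (without ICD replicate 1), with 1 to 362 higher and 10 to 481 lower, in fits with fewer residual degrees of freedom that take a lone HMM array to vary like the ICD group. Of the 181 genes of the lists other than keratins, 47 were called, and 6 to 66 with an array left out. No other keratin probe set was called with an ICD array left out. Without ICD replicate 2 only 22 of all kept probe sets were called at all, so this constant 0 is no check.

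Same-numbered arrays deviated together (r = 0.651 for replicate 1 and 0.508 for replicate 2, across genes). The deviations of the 2 HMM arrays from their mean mirror each other, so these are not 2 separate agreements. With 2 shared numbers this is a hint from the data and not a known pairing. Only ICD has a replicate 3, so the replicate block fits that array exactly and its contrast rests on replicates 1 and 2. Few residual degrees of freedom remain in it. Member differences with the block were 1.23, 1.51, 1.62 and 2.28, the same as without ICD replicate 3. With the block 1714 probe sets were called, 744 higher and 970 lower, 76 list genes, and 1 other keratin probe set, that of krt12.4.S. Under the remaining alternatives these overall counts stayed within 1.5 times those reported. Single calls near the threshold were less steady: the desmosome count of 0 was 3 with the replicate block and 1 with 4 times the pseudocount, robust eBayes, median centring or the stricter filter, and the count of 1 other intermediate filament gene was 0 with no pseudocount, quantile normalization or the stricter filter.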
